A study of Homo sapiens with 6 samples.

Results

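AP-1 is a family of dimeric transcription factors, and the 7 genes described here encode its core subunits: the FOS group, with FOS, FOSB, FOSL1 and FOSL2, and the JUN group, with JUN, JUNB and JUND. They were taken by gene symbol from the deposited table, in which each symbol stood on 1 row, so the 7 members are 7 of 57820 annotated genes, and all 7 reached the minimum level for testing (a mean normalised count of 10 over the libraries), as did 14889 genes in all. The cells were U2OS, an established human osteosarcoma line of which both groups consist, with no allele or transgene named in the labels. One group of 3 libraries was treated for 4 h with 5 µM NMS-873, dissolved in DMSO, and the other group of 3 libraries with 0.05% DMSO alone. NMS-873 blocks VCP (p97) at an allosteric site; VCP is an ATPase that extracts ubiquitylated proteins for degradation, and the study asked how transcripts responded to its inhibition. Polyadenylated RNA was sequenced, and no label says that the libraries of 1 group are from separate cultures. The p-values thus cover only the spread among these libraries, which may be technical.

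FOS proteins cannot pair with themselves and bind DNA as heterodimers with a JUN protein, whereas JUN proteins can also form dimers with each other. The dimers bind a short palindrome, the TPA response element, or the closely related cyclic AMP response element. FOS, FOSB, JUN and JUNB are classic immediate early genes, switched on within minutes by growth factors and stress through MAP kinases, and their transcripts are short-lived. FOSL1 and FOSL2 encode the Fra proteins, which lack the strong activation domain of FOS, and JUND is usually made more constantly. In bone, FOS and FOSL2 are known regulators of osteoblasts and osteoclasts, and FOS was found as the oncogene of a mouse osteosarcoma virus.

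Libraries held 21132311 to 22488952 reads in genes, and the deposited values are scaled to spike-in RNA, on which scale the median tested gene was at -0.10 (log2). NMS-873 replicate 1 stood apart from the other NMS-873 libraries: comparing its reads with theirs gave a chi-square per degree of freedom of 7.43 and 7.90, against 1.79 between replicates 2 and 3, and mitochondrial genes took 3.99% of its reads against 2.66% and 2.50%. DMSO replicate 3 stood apart to a lesser degree, at 3.52 and 3.58 against 1.52 between the other DMSO libraries, and its mitochondrial share was 2.87% against 3.41% and 3.68%. Of 10 osteoblast and mesenchymal markers, the summed level was 721 to 750 FPKM with DMSO and 608 to 632 FPKM with NMS-873. Of these markers 6 were tested, and 4 fell and 0 rose, while 33.0% of all tested genes fell and 14.9% rose. VIM, COL1A1 and CDH2 were abundant, while the osteoblast genes SP7, BGLAP and IBSP were at or near 0 in both groups. Markers of epithelium summed to 3.31 to 4.24 FPKM over the libraries, of blood cells to 0.0263 to 0.149 FPKM, with CD3E and HBB at 0, and of endothelium to 0.131 to 0.271 FPKM, where VWF rose from 20.1 to 36.4 normalised counts. The part of these differences in the results below was not tested.

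After 4 h of NMS-873, 5 of the 7 AP-1 genes rose and 0 fell: FOS and JUND most, at 2.64-fold and 2.46-fold, then JUNB at 1.74-fold, JUN at 1.37-fold and FOSL2 at 1.26-fold. FOSL1, among the most abundant members, was at the same mean level in both groups, and FOSB was close to the limit of detection. The 5 members were called by limma, a linear model fitted to all genes tested, at an adjusted p under 0.05. By the same rule 47.9% of all tested genes were called, 14.9% higher and 33.0% lower with NMS-873, so on the spike-in scale higher calls were the less common kind among all genes. With gene-based factors this turned, to 3761 higher and 3103 lower, and with TMM factors to 3700 and 3140. In the same 5 members every NMS-873 library lay above every DMSO library, which held for 16.4% of tested genes, while 37.2% lay wholly below. The same 5 were called higher with gene-based, TMM and equal-total scaling, where 25.3%, 24.8% and 16.6% of tested genes were. Of the 5, FOS and JUND changed at least 2-fold, as did 1.64% of tested genes among the higher calls. The members were chosen with earlier results of these data known, so these counts beside the shares of all genes are descriptive only. In bulk RNA a higher level in each cell and a larger share of cells with the transcript cannot be told apart.

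**Figure D1:**
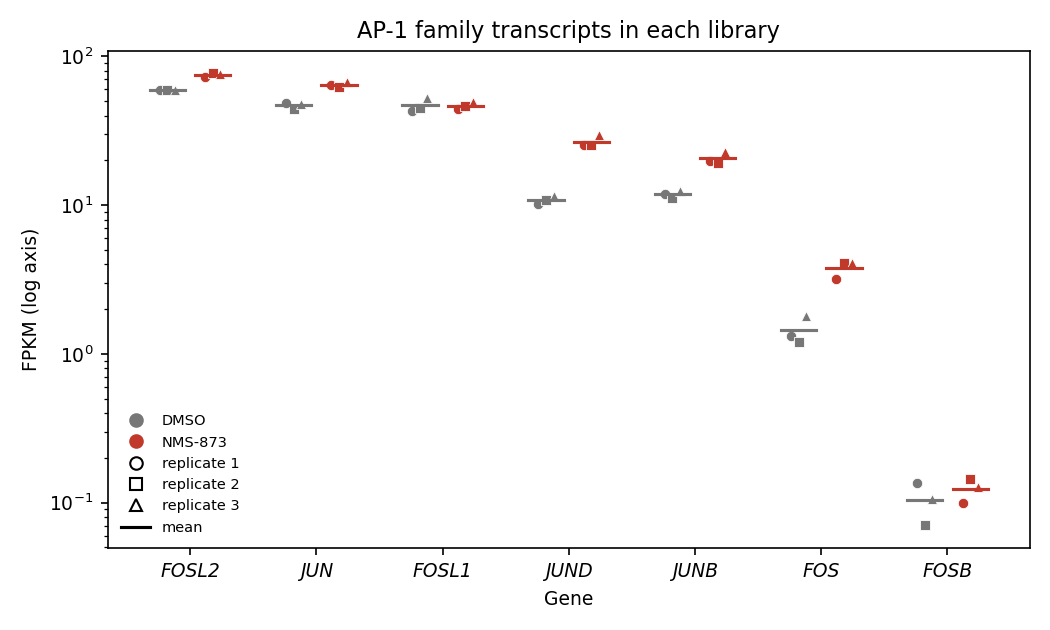
FPKM (a read count scaled for the gene's length and the library; log axis) of the 7 members in each of the 6 libraries, DMSO in grey and NMS-873 in red, with symbols for replicates and bars for group means. The groups are apart for FOSL2, JUN, JUND, JUNB and FOS and overlap for FOSL1 and FOSB.

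In the JUN group, JUN encodes the prototype subunit, whose protein is activated when JNK phosphorylates it. JUN stood at 48.4, 44.4 and 48.0 FPKM in DMSO replicates 1 to 3 and at 64.0, 61.9 and 67.3 FPKM in NMS-873 replicates 1 to 3. The lowest NMS-873 library was well above the highest DMSO library. The log2 fold change was 0.46 (SE 0.0539, 95% interval 0.35 to 0.56, adjusted p = 3.46e-14 in limma). JUNB, a weaker activator that can oppose JUN, was at 11.8, 11.2 and 12.5 FPKM with DMSO and at 19.8, 19.3 and 22.9 FPKM with NMS-873. Replicate 3 was the highest in each group, and the groups did not overlap. Its log2 fold change was 0.80 (SE 0.0676, 95% interval 0.67 to 0.93, adjusted p = 1.82e-24). JUND, often described as a brake on proliferation, was at 10.2, 10.8 and 11.5 FPKM with DMSO and at 25.4, 25.4 and 29.5 FPKM with NMS-873. Every treated library held more than double any control library's level. The log2 fold change of JUND was 1.30 (SE 0.0657, 95% interval 1.17 to 1.43, adjusted p = 2.14e-51), which placed it 140th among the 14889 tested genes in order of rise.

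In the FOS group, FOS encodes the most transient subunit, with an unstable transcript and protein. FOS was at 1.32, 1.20 and 1.80 FPKM in DMSO replicates 1 to 3 and at 3.20, 4.07 and 4.11 FPKM in NMS-873 replicates 1 to 3. The groups were apart, and the treated libraries varied, with replicate 1 the lowest. These levels rest on 91, 89 and 128 reads with DMSO and on 226, 294 and 281 reads with NMS-873. The log2 fold change was 1.40 (SE 0.107, 95% interval 1.19 to 1.61, adjusted p = 1.3e-28), the 120th largest rise. By mean FPKM, FOS ranked 10722nd of the 14889 tested genes with DMSO and 7802nd with NMS-873. FOSL2 (Fra-2) was the most abundant member, 604th by mean FPKM over all libraries, at 59.5, 59.7 and 59.9 FPKM with DMSO and at 73.2, 76.9 and 76.4 FPKM with NMS-873. The DMSO libraries were nearly identical, with a coefficient of variation of 0.305%, and all treated libraries lay above them. Sampling of their 9053, 9818 and 9439 reads alone would tend to spread the DMSO libraries more, so this closeness is not a measure of precision. The log2 fold change of FOSL2 was 0.34 (SE 0.0568, 95% interval 0.23 to 0.45, adjusted p = 6.86e-08).

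FOSL1 (Fra-1), a subunit that is often high in invasive tumour lines, did not pass the test. It was at 43.1, 45.1 and 52.7 FPKM with DMSO and at 44.1, 46.5 and 49.6 FPKM with NMS-873. All treated libraries lay within the range of the controls. The log2 fold change was 0.00 with a 95% interval from -0.11 to 0.11 (adjusted p = 0.973), which as folds runs from 0.924 to 1.08, so a rise of the size seen for FOSL2 lies outside it. With gene-based factors FOSL1 was at 0.10, also short of the threshold (adjusted p = 0.0869). FOSB, another immediate early subunit, was at 0.136, 0.0705 and 0.106 FPKM with DMSO and at 0.0991, 0.145 and 0.128 FPKM with NMS-873. That is 16, 9 and 13 reads against 12, 18 and 15 reads, and the groups overlapped. Its log2 fold change of 0.26 had a 95% interval from -0.36 to 0.88 (adjusted p = 0.512), so at this depth neither a fall to 0.78-fold nor a rise to 1.85-fold could be told from no change. FOSB also lies wholly within the span of ERCC1, a more abundant gene on the opposite strand, and no source used here says whether counting used strand, so its few reads are uncertain. JUNB overlaps HOOK2 on the opposite strand, which was lower than JUNB at 127 and 120 normalised counts and did not pass (adjusted p = 0.517).

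The p-values above rest mostly on the spread of other genes, since limma's prior variance carried 250.84 degrees of freedom. Without the trend in that prior all 5 calls held, and the adjusted p was 0.00186 for FOS, 1.66e-04 for JUND, 9.89e-04 for JUNB, 0.0025 for JUN and 0.00303 for FOSL2. Without NMS-873 replicate 1 the log2 fold changes were 1.52 for FOS, 1.34 for JUND, 0.83 for JUNB, 0.46 for JUN and 0.36 for FOSL2, and without DMSO replicate 3 that of FOS was 1.57. The authors' deposited table gives log2 fold changes of 1.40 for FOS, 1.30 for JUND, 0.80 for JUNB, 0.46 for JUN and 0.34 for FOSL2, each with an adjusted p under 0.05, and adjusted p values of 0.734 for FOSB and 0.958 for FOSL1.

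**Figure D2:**
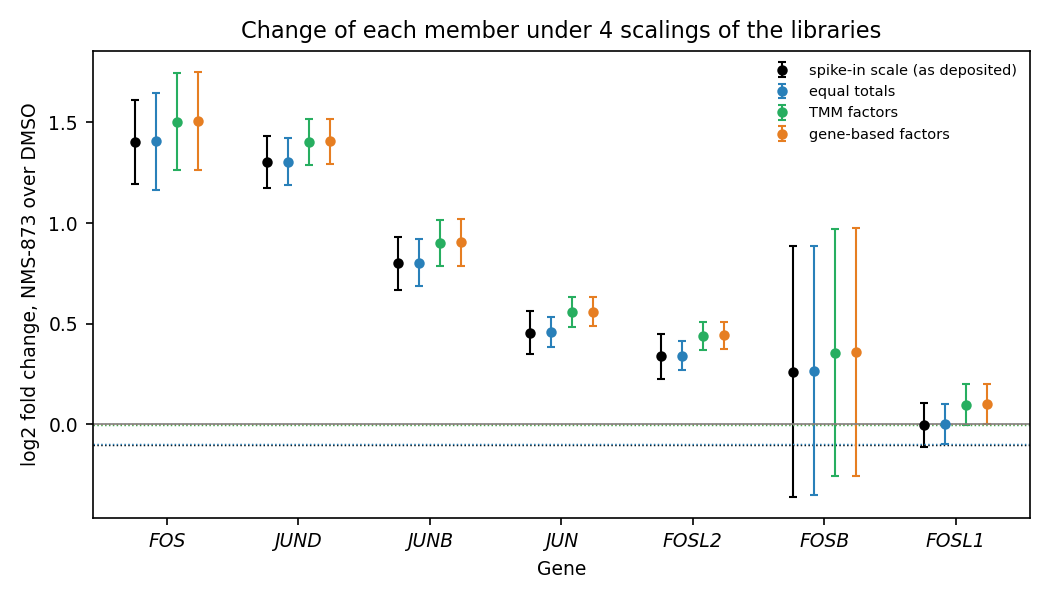
Log2 fold change of each member, NMS-873 over DMSO, with 95% intervals from limma, under the deposited spike-in scale and 3 other scalings; dotted lines mark the median of all genes tested under each. FOS, JUND, JUNB, JUN and FOSL2 lie above 0 under all 4, and the intervals of FOSB span 0 under all 4.

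The order of the members changed with treatment. With DMSO the highest was FOSL2 at 59.7 ± 0.182 FPKM (mean ± SD, n = 3 libraries, as below). FOSL1 at 47.0 ± 5.05 and JUN at 46.9 ± 2.20 FPKM followed, and these neighbours did not differ beyond their spread. JUNB at 11.8 ± 0.657 and JUND at 10.8 ± 0.636 FPKM came next. Their ranges overlapped, though JUNB was above JUND within each DMSO library. Then came FOS at 1.44 ± 0.316 and FOSB at 0.104 ± 0.0326 FPKM. With NMS-873 the order was FOSL2 at 75.5 ± 1.99 FPKM, JUN at 64.4 ± 2.69, FOSL1 at 46.8 ± 2.71, JUND at 26.8 ± 2.34, JUNB at 20.7 ± 1.92, FOS at 3.79 ± 0.511 and FOSB at 0.124 ± 0.0233. No neighbours overlapped in the treated libraries: JUN was above FOSL1 and JUND above JUNB in each of them.

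Summed over the 7 members, the family rose from 178 ± 7.53 to 238 ± 10.5 FPKM (1.34-fold). The 3 JUN genes together went from 69.6 ± 2.90 to 112 ± 6.85 FPKM, 1.61-fold, and the 4 FOS genes from 108 ± 5.51 to 126 ± 4.92 FPKM, 1.17-fold. Which group added more depends on length scaling: in FPKM the JUN genes added more, whereas in normalised counts, not divided by length, they added 2267 and the FOS genes 2633. The share of the family's FPKM held by the JUN genes is a ratio within a library and does not depend on how libraries are scaled. It was 40.4%, 38.5% and 38.6% in DMSO replicates 1 to 3 and 47.5%, 45.5% and 47.9% in NMS-873 replicates 1 to 3. All treated libraries were above all controls, by 7.81 percentage points on average (exact two-sided permutation test, p = 0.1, the smallest that 3 against 3 allows). On normalised counts, not divided by length, the difference was 4.46 points, also without overlap. The widest shifts within the family were those of JUND, from 6.09% ± 0.207 to 11.2% ± 0.499 of the summed FPKM, and of FOSL1, from 26.4% ± 1.79 to 19.6% ± 0.368. JUN itself held 26.4% ± 1.15 and 27.1% ± 0.717, and its libraries overlapped. These are levels of transcripts and say nothing of protein.

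**Figure D3:**
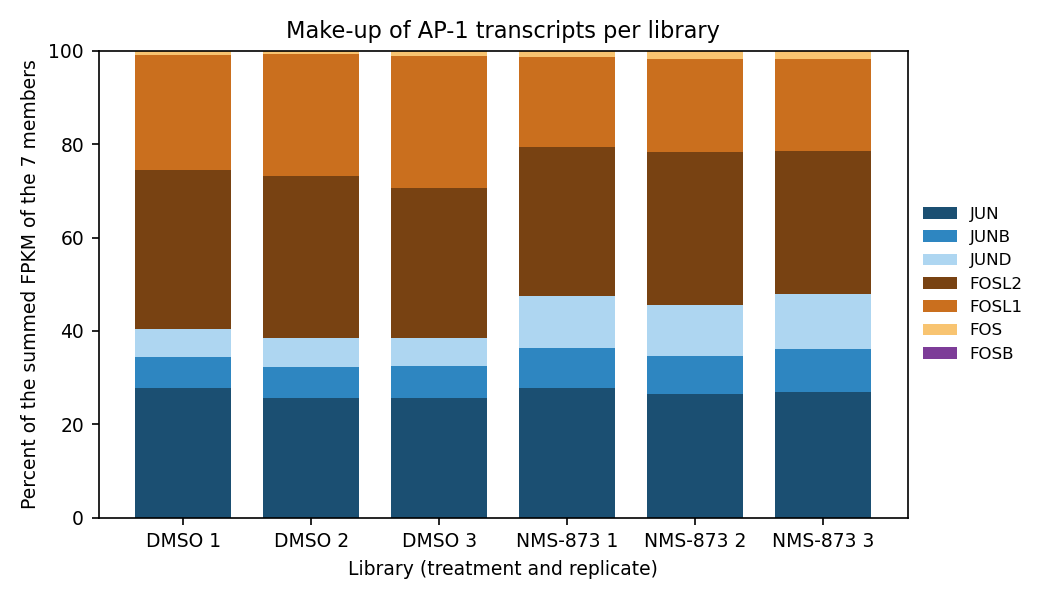
Percent of the summed FPKM of the 7 members taken by each, for the 6 libraries; each bar is 1 library and blue shades are the JUN genes. The JUN genes together take 38.5% to 40.4% with DMSO and 45.5% to 47.9% with NMS-873, and FOSB is too low to be seen.

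The members were compared with each other by the log2 ratio of their normalised counts within each library, over 21 pairs. In 15 pairs the ratios of treated and control libraries did not overlap, as in 53.1% of all pairs of tested genes. No pair could pass in this design: the exact permutation test gave p = 0.1 for the 15 and an adjusted p of 0.14 over the 21 pairs. The ratio of JUN to JUND fell by 0.85 (log2), from 2.94 with DMSO to 2.10 with NMS-873, and that of JUNB to JUND fell by 0.50. The ratio of FOSL1 to FOSL2 fell by 0.34. For FOS over JUND the ratio was 0.10 higher with NMS-873, and for FOSL2 over JUN it was 0.12 lower, a difference of -0.12, both with overlapping groups, which does not show that these genes responded alike.

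Within the groups, replicate 3 was the highest library for 5 of the 7 members with DMSO and for 5 of the 7 with NMS-873. That held in both groups for FOS, FOSL1, JUNB and JUND. The share of all tested genes that were highest in replicate 3 was not counted, so this is not read as a trait of the family. Replicate 3 also had the lowest share of spike-in reads in each group, at 0.359% with DMSO and 0.367% with NMS-873. The values are scaled to those reads, and the part of this in the order was not tested. Over all tested genes, deviations of same-numbered libraries correlated at -0.03 to 0.04. That shows no pairing by replicate number, but it cannot reveal a shift common to all genes.

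The members are spread over 5 chromosomes and share none of their neighbourhoods. On hg19, the build of the deposited table, FOS (ENSG00000170345.5) lies on chromosome 14, 75745477 to 75748933, FOSB (ENSG00000125740.9) on chromosome 19, 45971253 to 45978437, FOSL1 (ENSG00000175592.4) on chromosome 11, 65659520 to 65668044, and FOSL2 (ENSG00000075426.7) on chromosome 2, 28615315 to 28640179. JUN (ENSG00000177606.5) lies on chromosome 1, 59246465 to 59249785, JUNB (ENSG00000171223.4) on chromosome 19, 12902310 to 12904124, and JUND (ENSG00000130522.4) on chromosome 19, 18390563 to 18392432.

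Promoters of 6 of the 7 members were found in RefSeq (build GRCh38.p14, 250 bases before to 50 after the gene's start) and searched on both strands, because AP-1 genes are known to be controlled by cyclic AMP response elements and by AP-1 itself. Shown are the 250 bases before the start of the 5 members with a match, which include 4 that rose and FOSB, whose change its few reads leave undetermined. Capitals mark TGACGT, the core of a cyclic AMP response element (the full element TGACGTCA contains it, and ACGTCA is the core read from the other strand), and TGACATCA, the variant known from the JUN promoter.
FOS, chr14:75278578-75278827, plus strand: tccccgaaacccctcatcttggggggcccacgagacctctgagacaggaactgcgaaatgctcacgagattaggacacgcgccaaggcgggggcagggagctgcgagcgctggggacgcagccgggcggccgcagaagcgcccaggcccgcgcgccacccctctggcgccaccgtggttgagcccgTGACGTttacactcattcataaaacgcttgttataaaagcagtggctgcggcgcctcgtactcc
FOSB, chr19:45467746-45467995, plus strand: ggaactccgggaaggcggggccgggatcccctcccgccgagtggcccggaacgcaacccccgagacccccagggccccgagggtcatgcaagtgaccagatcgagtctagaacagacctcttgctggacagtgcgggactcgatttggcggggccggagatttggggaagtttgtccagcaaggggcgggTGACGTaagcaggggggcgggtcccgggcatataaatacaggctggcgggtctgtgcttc
FOSL2, chr2:28392608-28392857, plus strand: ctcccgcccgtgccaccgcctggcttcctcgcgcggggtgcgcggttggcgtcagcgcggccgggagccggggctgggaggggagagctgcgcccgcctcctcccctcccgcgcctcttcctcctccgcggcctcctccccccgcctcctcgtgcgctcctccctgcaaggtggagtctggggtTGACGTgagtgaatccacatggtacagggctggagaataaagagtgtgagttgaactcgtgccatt
JUN, chr1:58784048-58784297, minus strand: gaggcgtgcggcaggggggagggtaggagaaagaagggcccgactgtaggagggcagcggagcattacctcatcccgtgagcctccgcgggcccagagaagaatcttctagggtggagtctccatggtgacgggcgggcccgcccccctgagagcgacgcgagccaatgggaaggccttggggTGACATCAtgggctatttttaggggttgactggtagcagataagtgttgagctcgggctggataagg
JUND, chr19:18281623-18281872, minus strand: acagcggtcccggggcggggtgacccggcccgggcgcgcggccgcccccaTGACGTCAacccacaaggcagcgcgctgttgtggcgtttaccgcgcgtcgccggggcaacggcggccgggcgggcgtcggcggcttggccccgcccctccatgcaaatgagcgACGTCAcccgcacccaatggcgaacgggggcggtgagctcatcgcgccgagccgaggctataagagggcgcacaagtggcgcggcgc

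TGACGT was present in 4 of the 6 promoters, against 7.98% of the 35116 RefSeq promoters of 300 bases searched in the same way. It lay at -64 to -59 from the start in FOS, -60 to -55 in FOSB and -66 to -61 in FOSL2, and the JUN variant TGACATCA lay at -67 to -60, so these 4 genes carry such letters at nearly the same distance from the start. JUND had the full TGACGTCA at -200 to -193, which 1.85% of promoters hold, and a TGACGT core on the other strand at -87 to -82. TGACATCA was in 2.61% of promoters. TGACTCA, the TPA response element, was found in FOSL2 alone, at 5 to 11 past the start, and in 4.95% of all promoters. None of the 6 windows held the CArG box of serum response factor, the ATF4-type element TGATGCAA or the ER stress element. In the same window 1.29%, 0.866% and 0.0769% of promoters hold them. Sequence further upstream was not searched, so whether FOS or another member has such a site there was not tested. JUNB held none of the motifs named above in its window. CCAAT, also searched, was in the windows of JUN, JUNB and JUND, 3 of the 6, against 34.6% of all promoters. FOS and FOSB share both TGACGT and a TATAAA box. TATAAA was also in JUNB, at -31 to -26, so 3 of the 6 windows held it, against 11.5% of all promoters. The matches describe letters in these windows and are not evidence of binding.

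Around the family, dimer partners and other immediate early genes mostly rose and AP-1 targets rose more often than they fell, while the MAP kinase genes and the regulators had medians of -0.04. The 5 lists were chosen with earlier results on these libraries known, and their counts are set beside the 14.9% higher and 33.0% lower among all genes tested.

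Of 18 bZIP factors that can pair with FOS or JUN proteins, 14 were tested, of which 10 rose and 2 fell. Their median log2 fold change was 0.53, against -0.10 for all genes. ATF3, a stress-induced partner of JUN, rose 16.2-fold, from 372 ± 8.48 to 6041 ± 124 normalised counts (reads scaled by library, not by length). MAFF, a small MAF protein without an activation domain, rose 3.29-fold, from 783 ± 72.7 to 2576 ± 95.5 normalised counts. NFE2L2, which encodes NRF2, rose 2.16-fold, and ATF4 rose 1.91-fold. Outside the naming rule, and picked after their values were seen, JDP2, a repressor that dimerises with JUN, rose 1.7-fold and ATF2, the JNK-activated partner of JUN, rose 1.49-fold. The members that fell, also picked in that way, were MAF, from 243 ± 13.3 to 154 ± 12.6 normalised counts, and BATF2, from 29.4 ± 7.23 to 15.7 ± 4.62; without DMSO replicate 3 only 1 fell.

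Of the 35 kinases and scaffolds of the MAP kinase cascades, 33 were tested, 6 rose and 13 fell, with a median of -0.04. These shares, 18.2% higher and 39.4% lower, are near those of all tested genes. With gene-based factors 12 rose and 7 fell, as with TMM factors, so the balance between rises and falls depends on the scale. Without NMS-873 replicate 2, on the spike-in scale, 3 rose and 10 fell. MAP3K1, an activator of the JNK pathway, fell 1.88-fold, from 389 ± 15.9 to 207 ± 17.6 normalised counts. MAPK14, the p38 alpha kinase, fell 1.28-fold. RPS6KA5, which encodes the nuclear kinase MSK1, rose 2.26-fold from a low level, 63.4 ± 6.73 to 145 ± 18.9 normalised counts, and MAP3K3 rose 1.32-fold. Of the JNK genes, picked after their values were seen, MAPK8 was at a log2 fold change of 0.20 (adjusted p = 0.00147) and MAPK9 at -0.14 (adjusted p = 0.0407). These are transcripts, and kinase activity was not measured here.

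Of 26 genes that control the FOS and JUN genes, transcripts or proteins, all were tested, 6 rose and 4 fell, with a median of -0.04; 12 rose with gene-based or TMM factors. Among the transcription factors of this list, SRF, the serum response factor, rose 1.47-fold, from 1762 ± 132 to 2588 ± 84.9 normalised counts, MEF2D rose 1.6-fold and MEF2A rose 1.56-fold. Others, picked after their values were seen, went the other way or did not pass: MEF2C, at 21.6 ± 6.82 and 10.3 ± 3.80 normalised counts, fell 2.02-fold, the SRF cofactor MKL2 fell by 0.45 (log2), and ELK1, ELK3 and ELK4 were at 0.10, -0.06 and 0.10 and did not pass. ZFP36L2, which binds AU-rich elements and promotes decay of transcripts such as that of FOS, fell 2.02-fold, from 1096 ± 61.2 to 542 ± 26.6 normalised counts. Its relatives, picked after their values were seen, differed: ZFP36L1 rose 1.44-fold, and ZFP36 was at 117 ± 15.7 and 97.3 ± 11.6 normalised counts and did not pass (adjusted p = 0.0771). Of the ubiquitin ligases that act on JUN, picked likewise, ITCH rose 1.35-fold, while FBXW7 and RFWD2 (COP1) were at log2 fold changes of 0.11 and 0.13 and did not pass (adjusted p = 0.139 and 0.0568). RNF187, another ubiquitin ligase gene of this list, fell, at a log2 fold change of -0.21 (adjusted p = 0.00117 in limma).

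Of 30 textbook AP-1 targets 27 were tested, 14 rose and 5 fell, with a median of 0.19. DUSP1, a phosphatase that inactivates MAP kinases, rose 6.31-fold, from 1364 ± 77.8 to 8607 ± 224 normalised counts. IL8 (CXCL8), a chemokine, rose 4.22-fold, IL11, a cytokine, 3.7-fold and HBEGF, a ligand of the EGF receptor, 3.52-fold. Outside the naming rule, and picked after their values were seen, the matrix protease gene MMP3 rose from 775 ± 71.8 to 1642 ± 19.8 normalised counts, whereas CCND1, which encodes cyclin D1, fell 2.53-fold, from 6158 ± 278 to 2436 ± 121. MMP9 and TIMP1 did not pass, at log2 fold changes of -0.03 and -0.01. The number that fell was 3 without NMS-873 replicate 2. Many of these genes have other known activators, whose part was not tested.

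Of 19 other immediate early genes 18 were tested, 15 rose and 2 fell, with a median of 0.78. EGR1, a zinc finger factor induced with FOS, rose 4.4-fold, from 1150.1 ± 86.3 to 5067 ± 413 normalised counts, and IER3, an early response gene linked to survival, rose 2.6-fold; ATF3 and MAFF belong to this list as well. The members that fell, picked after their values were seen, were IER5, at a log2 fold change of -0.35, and EGR3, which was low, at 17.2 ± 6.62 and 8.77 ± 5.74 normalised counts; 1 fell without DMSO replicate 3 or NMS-873 replicate 1. The rise of FOS by 1.40 thus stood above the list's median and below EGR1 at 2.14, while JUNB at 0.80 was close to that median and JUN at 0.46 was under it.

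**Figure D4:**
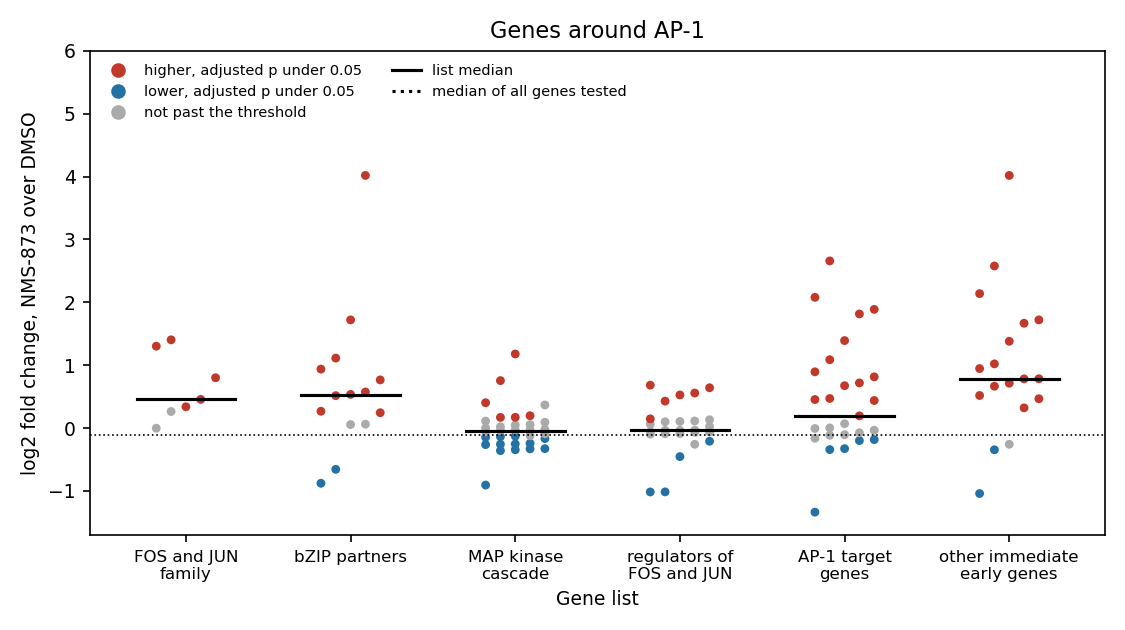
Log2 fold change, NMS-873 over DMSO, of every tested gene in the family and in the 5 lists around it; points are genes, coloured by call, bars are list medians, and the dotted line is the median of all genes tested. Medians are 0.46 for the family, 0.53 for bZIP partners, -0.04 for MAP kinases, -0.04 for regulators, 0.19 for targets and 0.78 for other immediate early genes.

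For each member, the genes with the most similar profile were sought among 12079 genes whose mean normalised count reached 50, by the root mean square difference of log2 values centred on each gene's mean over the 6 libraries. For FOS these were SNAI3-AS1, CHRNA9 and GEM, at 0.0978, 0.105 and 0.138. For JUND they were GADD45A, RCAN1 and DNAJB11, at 0.0512, 0.0536 and 0.0576, for JUNB HDAC9, RAB5B and ENTPD7, at 0.0172 to 0.0398, and for JUN TMEM209, CTBP2 and RP11-169F17.1, at 0.016 to 0.0293. For FOSL2 they were SURF4, MDM2 and AZI2, at 0.0177 to 0.0186, for FOSL1 SERINC2, STARD10 and IFT43, at 0.0242 to 0.0294, and for FOSB, with 9 to 18 reads per library, AFF2, RAD54B and PCMTD1, at 0.0823 to 0.152.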

How the data were processed

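Polyadenylated RNA of 3 DMSO and 3 NMS-873 libraries was measured. Per the submitters' processing notes, featureCounts 1.5.1 and DESeq2 1.16.1 were used on hg19; the aligner and the strand setting are not given in the sources used here. The deposited sample columns hold FPKM, and the table also gives, per the file headers, the mean normalised count per gene (a signal in scaled reads) and the log2 fold change and adjusted p-value of the authors' comparison. Normalised counts were rebuilt as FPKM times the mean normalised count over the mean FPKM; times each library's size factor, 100% were within 0.001 of whole reads. The factors equal those from the 92 spike-in rows, which were left out of tests, so an error in spike-in amount would move all genes.

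Genes whose mean normalised count reached 10 were fitted with limma 3.58.1 (R 4.3.3). The response was log2(normalised count + 1), the model held treatment alone, and a variance trend was used, two-sided, with Benjamini-Hochberg adjustment over all genes at 0.05; fold changes are on that scale, which understates changes of low genes. Shares and ratios were tested with exact permutations (scipy 1.17.1). The family members and lists were chosen with earlier results of these data known. Named list genes are the up to 4 per list with the lowest adjusted p among those called, and for likeness the 3 nearest genes. On simulated counts for 14889 genes, 82% of genes changed 1.5-fold, 94% of those changed 2-fold and 100% of those changed 4-fold were recovered, and 9 of 14689 unchanged genes were called. The simulation gave every gene the same spread beyond sampling noise and had no library that stood apart. These rates are therefore not error rates of the real libraries. Replicates differed beyond sampling noise (chi-square per degree of freedom 1.52 to 7.90). Without molecular identifiers, read counts give only the least error possible. The ER stress element was searched as CCAAT and CCACG with 9 free bases between.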

Additional observations from a re-analysis of the deposited data

How the results depend on the processing

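The 5 higher and 0 lower calls of the family were the same under all 16 alternatives run: gene-based, TMM and equal-total scaling, a pseudocount of 5, log2(FPKM + 0.1), a count minimum of 50 (which removes FOSB) or none, voom, no variance trend, the replicate block and leaving out each library. Over these the log2 fold change ranged from 1.28 to 1.57 for FOS, 1.23 to 1.41 for JUND, 0.72 to 0.90 for JUNB, 0.42 to 0.56 for JUN, 0.33 to 0.44 for FOSL2, -0.06 to 0.10 for FOSL1 and 0.03 to 0.46 for FOSB. Genes higher and lower among all tested were 3761 and 3103 with gene-based factors and 3700 and 3140 with TMM factors, against 2217 and 4910 on the spike-in scale, because these factors move the median gene from -0.10 to 0.00. They gave 12 higher and 7 lower MAP kinase genes and 12 higher regulators. Without the variance trend 2 MAP kinase genes were higher and 8 lower. The bZIP genes lower numbered 1 with a count minimum of 50, and the immediate early genes lower numbered 1 with gene-based factors, log2(FPKM + 0.1), a count minimum of 50 or no variance trend. The count minimum of 50 leaves out BATF2 and EGR3, which had been called lower and whose mean normalised counts lie under it. The cause of the other moves in the lists was not tested. Leaving out 1 library gave 1 to 2 bZIP genes lower, 3 to 7 MAP kinase genes higher, 3 to 6 targets lower and 1 to 3 immediate early genes lower. The share of JUN genes rose by 4.46 points on normalised counts not divided by length, and by 7.35 to 8.53 points with 1 library left out.

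Replicate numbers are shared by the groups, and whether they pair the libraries is not settled. With the replicate block 2352 genes were higher and 5255 lower, the family count stayed at 5 and 0, and no call among the 7 members changed. Depth limits FOSB, at 9 to 18 reads per library, and the uncertain strand setting limits genes with an overlapping partner.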

Other observations

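ERCC1, a DNA repair gene that spans FOSB on the opposite strand, fell slightly, by 0.15 on the log2 scale (limma, adjusted p = 0.0155); its normalised counts averaged 2660 ± 89.3 in the controls and 2398 ± 101 in treated cells, with FOSB at 12.6 ± 3.95 in the controls. HOOK2, on the strand opposite to JUNB and overlapping it in the deposited annotation, was at 127 ± 8.17 and 120 ± 21.5 and did not pass (log2 fold change -0.10, adjusted p = 0.517), while JUNB rose by 0.80. CCDC85B, which lies 415 bases from FOSL1 on the other strand, fell by 0.43 (adjusted p = 5.87e-06), from 334 ± 30.1 to 248 ± 37.5 normalised counts, with FOSL1 at 0.00. RP4-794H19.2, a non-coding gene 1038 bases from JUN on the other strand, had 2 reads over all 6 libraries. FIBP, 3510 bases from FOSL1, was at -0.14 (adjusted p = 0.0306), and PRDX2, 3510 bases from JUNB, was at -0.18 (adjusted p = 0.00463). RP11-373D23.2, which overlaps FOSL2, was at 0.11 and did not pass (adjusted p = 0.818). Of the members that rose, only JUNB and FOSL2 had tested neighbours, namely HOOK2, PRDX2 and RP11-373D23.2. None of these was called higher, and they are too few to set against the 14.9% of all tested genes that were. All of these neighbours were picked by distance, within 5000 bases of a member.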
